A study of Mus musculus with 4 samples.

Results

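Cells with abundant Ly6c2 transcript were picked out of 4 single-cell RNA libraries of dendritic cells sorted from mouse tumours, and 505 of the 26882 barcodes that passed the cell filter met the rule, a share of 1.88%. The tumours were B16-F10, an established melanoma line of C57BL/6 origin, and grew under the skin of C57BL/6 mice from 500000 cells. On day 12 they were injected with 1 of 4 adenoviral vectors. Ad-COMBO stands for a mixture of ISF35 and mIFNB, Ad-mIFNB for a vector with mouse interferon beta alone, Ad-MEM40 for ISF35 alone, and Ad-Null for a vector labelled NULL. ISF35 and MEM40 are 2 names the labels use for the same treatment, a membrane-bound recombinant form of CD40 ligand. Every animal received an adenovirus, and no library came from uninjected tumours. Each library held cells pooled from 3 tumours, so each treatment is 1 sample and no difference between treatments has a replicate check. All mice were perfused with PBS, the tumours were digested with enzymes, and cells positive for CD11c and MHC-II were sorted. The sort fixes the presence of MHC class II and of CD11c. The age of the mice and the time between injection and harvest are not given in the sources used here.

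Members were chosen by measured UMI counts of Ly6c2 and of the genes of other cells. A barcode was a member when it had at least 500 genes, at most 10% mitochondrial UMIs (unique molecular identifiers, each standing for 1 captured transcript) and at least 10 Ly6c2 UMIs per 10000. It also had to have under 5 UMIs per 10000 of C1qa, C1qb and C1qc together, under 10 of Retnla, at most 2 raw UMIs of Ccr7, at most 1 of Xcr1 and Clec9a together and at most 2 of Siglech. These clauses set aside complement-rich macrophages, Retnla-rich monocytic cells, mature dendritic cells, type 1 conventional dendritic cells (cDC1) and plasmacytoid dendritic cells (pDC). Cells that met every clause but had Ly6c2 under 10 per 10000 are called Ly6c2-low counterparts here. The working name of the group was Ly6c2-high monocyte-like cells. Several defining monocyte genes described below were sparse in the members while Ccr2 was not, so the group is called by its rule, Ly6c2-high cells.

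Ly6C, the surface protein encoded by Ly6c2 together with the near-identical Ly6c1, marks classical monocytes, which leave the blood for inflamed tissue and can become macrophages or dendritic cells there. Type I interferon binds a receptor present on most cells and switches on a large set of antiviral genes, and Ly6c2 itself is among the genes that interferon induces in mouse leukocytes. Type 2 conventional dendritic cells (cDC2) arise from a different, FLT3-dependent lineage and share many surface markers with dendritic cells made from monocytes. High Ly6c2 alone therefore does not separate the monocyte lineage from an interferon-exposed dendritic cell.

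Ly6c2-high cells were scarce in the tumours given Ad-MEM40 or Ad-Null and took a larger share in both libraries whose vectors carried interferon beta. They were 43 of 671 cells in Ad-COMBO (6.41%, 95% Clopper-Pearson interval 4.68 to 8.54%), 245 of 1810 in Ad-mIFNB (13.5%, 12.0 to 15.2%), 151 of 15656 in Ad-MEM40 (0.964%, 0.817 to 1.13%) and 66 of 8745 in Ad-Null (0.755%, 0.584 to 0.959%). The intervals of the Ad-COMBO and Ad-mIFNB libraries overlapped neither each other nor those of Ad-MEM40 and Ad-Null, while the last 2 overlapped. All intervals given here cover counting error only and not the difference between tumours. Complement-rich cells made up 37.5% of the Ad-MEM40 cells and 25.8% of the Ad-Null cells, against 16.1% in Ad-COMBO and 14.8% in Ad-mIFNB, so the shares were also taken among the cells that met all other clauses. There Ly6c2-high cells were 18.4% in Ad-COMBO (13.6 to 23.9%), 27.6% in Ad-mIFNB (24.6 to 30.6%), 2.86% in Ad-MEM40 (2.43 to 3.34%) and 1.87% in Ad-Null (1.45 to 2.37%). The order of the libraries was the same, but here the intervals of Ad-MEM40 and Ad-Null did not overlap. Single-cell shares cannot tell more Ly6c2-high cells from fewer cells of other kinds.

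Within the members, Ly6c2 itself also stood higher with interferon beta. Its median was 25.4 UMIs per 10000 in Ad-COMBO members, 26.4 in Ad-mIFNB, 14.9 in Ad-MEM40 and 12.5 in Ad-Null, and the highest cell had 86.9, 246, 73.0 and 42.3 in those libraries. The rule chose on Ly6c2, so these values are a description. The threshold cut through a continuous range: the 5 lowest members had 10.1 to 11.6 per 10000 in Ad-COMBO, 10.1 to 10.3 in Ad-mIFNB, 10.0 to 10.4 in Ad-MEM40 and 10.1 to 10.4 in Ad-Null, and the 5 highest cells left out had 7.88 to 9.45, 9.87 to 9.96, 9.87 to 9.99 and 9.81 to 10.00 there. Between 10 and 12 per 10000 lay 6 of the 43 members in Ad-COMBO, 26 of 245 in Ad-mIFNB, 38 of 151 in Ad-MEM40 and 27 of 66 in Ad-Null. Members in the last 2 libraries were thus closer to the threshold.

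The members were well covered. Their median depth was 11202 UMIs in Ad-COMBO, 12128 in Ad-mIFNB, 8487 in Ad-MEM40 and 12976 in Ad-Null, against 5617, 11205, 8655 and 13549.5 in the counterparts of those libraries. Summed over members, 525059 UMIs stood behind each Ad-COMBO level, 2875058 behind Ad-mIFNB, 1247893 behind Ad-MEM40 and 857184 behind Ad-Null, so 1 UMI was worth 1.90 CPM (counts scaled to a common total of the members' UMIs) in Ad-COMBO and 0.348 CPM in Ad-mIFNB. No member barcode occurred among the members of a second library. A doublet caller marked 0 of 43, 0 of 245, 3 of 151 and 2 of 66 members in the same order of libraries, and they were kept.

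High Ly6c2 was not confined to the members. Of all cells that passed the filter, 107 in Ad-COMBO (15.9%), 420 in Ad-mIFNB (23.2%), 409 in Ad-MEM40 (2.61%) and 285 in Ad-Null (3.26%) reached 10 Ly6c2 UMIs per 10000, and the members were 40.2%, 58.3%, 36.9% and 23.2% of these. Cells set aside for Xcr1 or Clec9a, the cDC1 genes, followed the members: 26 of 161 were Ly6c2-high in Ad-COMBO (16.1%) and 88 of 338 in Ad-mIFNB (26.0%), but 22 of 2381 in Ad-MEM40 (0.924%) and 52 of 1788 in Ad-Null (2.91%). So did cells with Ccr7, the receptor that takes mature dendritic cells to lymph nodes, at 13.4%, 16.0%, 0.829% and 0.709%. Siglech cells, the pDC gate, were mostly Ly6c2-high in every library, at 94.7% (18 of 19), 87.5% (28 of 32), 69.0% (156 of 226) and 60.1% (140 of 233). Complement-rich cells were the exception. None of 108 was Ly6c2-high in Ad-COMBO, which allows a share of up to 3.36%, and the shares were 5.22% in Ad-mIFNB, 1.07% in Ad-MEM40 and 0.930% in Ad-Null.

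**Figure D1:**
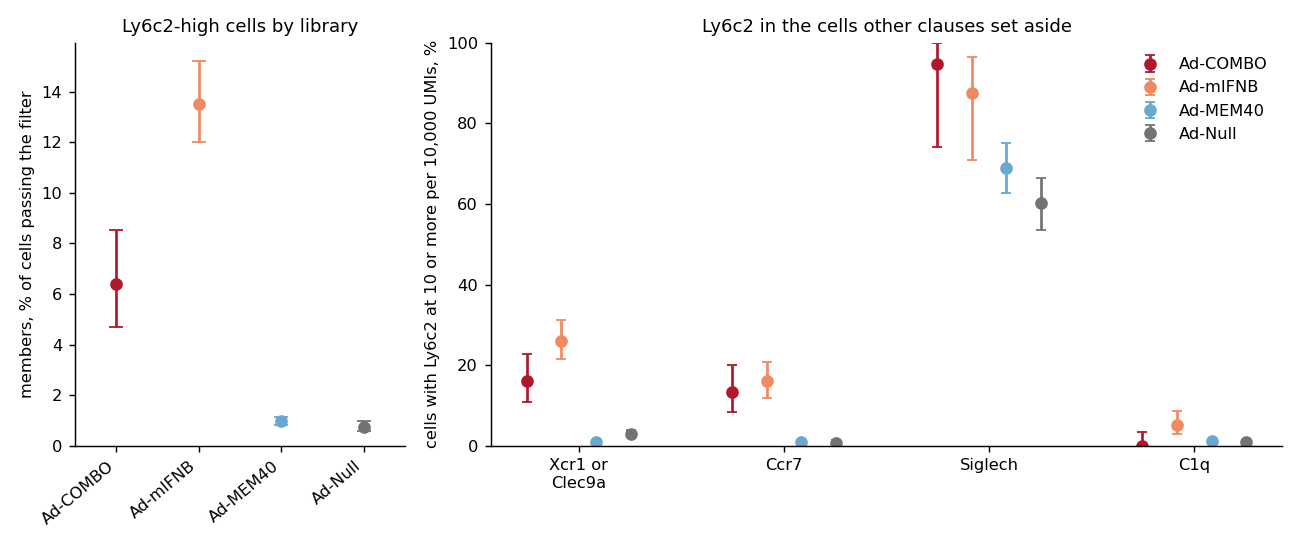
Left, members in percent of the cells that passed the filter in each library, at 6.41% in Ad-COMBO, 13.5% in Ad-mIFNB, 0.964% in Ad-MEM40 and 0.755% in Ad-Null. Right, the percent of cells with Ly6c2 at 10 or more UMIs per 10000 among those set aside for Xcr1 or Clec9a, Ccr7, Siglech or C1q, where Siglech cells are the highest in each library; points are shares and bars exact 95% binomial intervals.

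Beside Ly6c2, 4 genes had been put forward as marks of these cells: Ifit3b and Ifit1bl1, mouse members of the IFIT family of interferon-induced RNA-binding proteins, Isg20, an interferon-induced exonuclease, and Apod, apolipoprotein D, a secreted lipocalin. In the GRCm38 annotation Ly6c2 lies at chr15:75108158-75111970 on the minus strand, Ifit3b at chr19:34607970-34613401 on the plus strand, Ifit1bl1 at chr19:34592891-34601956 on the minus strand, Apod at chr16:31296192-31314808 on the minus strand and Isg20 at chr7:78913424-78920396 on the plus strand. Ifit3b and Ifit1bl1 are neighbours in the Ifit cluster. The promoter windows of Ifit3b, Ifit1bl1, Ly6c2 and Apod are shown as those of the gene of the rule and of 3 of its marker genes, and that of Isg15, a ubiquitin-like interferon-induced protein at chr4:156199424-156200818 on the minus strand, because it was the most abundant gene among those named here for the response. Each window runs from 250 bases before to 50 after an annotated start, 5′ to 3′ on the gene's strand, and comes from RefSeq on GRCm38.p6. Capitals mark GAAA, any 2 bases and GAAA again, or its reverse complement, the core of the interferon-stimulated response element, searched on both strands. The windows are Ifit3b chr19:34607707-34608006, Ifit1bl1 chr19:34601919-34602218, Isg15 chr4:156200769-156201068, Ly6c2 chr15:75111922-75112221 and Apod chr16:31314759-31315058.
Ifit3b: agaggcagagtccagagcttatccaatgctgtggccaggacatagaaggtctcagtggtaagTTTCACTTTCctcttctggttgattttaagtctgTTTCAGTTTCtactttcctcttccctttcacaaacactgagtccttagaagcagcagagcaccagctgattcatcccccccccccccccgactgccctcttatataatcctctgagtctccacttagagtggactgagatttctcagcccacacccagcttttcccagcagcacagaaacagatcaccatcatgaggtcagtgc
Ifit1bl1: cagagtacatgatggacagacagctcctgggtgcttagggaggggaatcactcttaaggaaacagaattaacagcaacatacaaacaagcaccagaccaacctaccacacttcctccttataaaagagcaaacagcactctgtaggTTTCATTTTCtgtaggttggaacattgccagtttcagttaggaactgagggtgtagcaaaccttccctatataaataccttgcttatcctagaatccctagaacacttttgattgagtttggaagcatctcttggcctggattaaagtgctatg
Isg15: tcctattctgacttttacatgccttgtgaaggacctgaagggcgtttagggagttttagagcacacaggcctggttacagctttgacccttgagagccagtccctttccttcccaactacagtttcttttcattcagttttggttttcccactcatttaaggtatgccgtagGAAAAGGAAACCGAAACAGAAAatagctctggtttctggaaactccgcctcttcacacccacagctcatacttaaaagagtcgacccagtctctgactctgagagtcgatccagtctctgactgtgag
Ly6c2: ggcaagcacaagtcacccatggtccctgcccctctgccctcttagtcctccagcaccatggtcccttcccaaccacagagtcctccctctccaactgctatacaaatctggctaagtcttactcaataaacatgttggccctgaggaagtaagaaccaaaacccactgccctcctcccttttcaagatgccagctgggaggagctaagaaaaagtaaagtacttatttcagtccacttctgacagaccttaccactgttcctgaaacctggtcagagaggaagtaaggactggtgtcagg
Apod: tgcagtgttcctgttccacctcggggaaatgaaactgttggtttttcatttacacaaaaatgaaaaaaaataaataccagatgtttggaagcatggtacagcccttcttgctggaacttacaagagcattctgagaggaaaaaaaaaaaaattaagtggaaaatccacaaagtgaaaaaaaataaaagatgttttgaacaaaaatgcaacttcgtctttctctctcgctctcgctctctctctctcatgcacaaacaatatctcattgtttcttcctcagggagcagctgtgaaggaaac
The Ifit3b window held 2 matches, 188 and 154 bases before the start, the Ifit1bl1 window 1 match 104 bases before it, and the Isg15 window 3 overlapping matches that begin 78, 72 and 66 bases before it. Those of Ly6c2, Apod and Isg20 held none, which says only that these letters are not in these windows. Of all promoter windows, 1131 of 32851 (3.44%) held a match, against 13 of 25 (52.0%) for the 22 genes of the type I interferon list below that had an entry.

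All 4 of these marker genes were higher in members than in counterparts by 1.5-fold or more in each of the 4 libraries. They were chosen with earlier results of these data known, so this is a description and no support. Of all genes, 7.94%, 3.60%, 3.05% and 3.48% were higher in members in Ad-COMBO, Ad-mIFNB, Ad-MEM40 and Ad-Null. All 4 were also higher in the members of both interferon beta libraries than in those of the other 2. Ifit3b was at 697 CPM in Ad-COMBO members (exact 95% Poisson interval 627 to 772), 388 in Ad-mIFNB (365 to 411), 43.3 in Ad-MEM40 (32.5 to 56.5) and 53.7 in Ad-Null (39.3 to 71.6). Ifit1bl1 was at 400, 385, 30.5 and 36.2 CPM in Ad-COMBO, Ad-mIFNB, Ad-MEM40 and Ad-Null. Both were about as low in Ad-MEM40 as in Ad-Null. Isg20 was at 1051 CPM in Ad-COMBO members, 841 in Ad-mIFNB, 220 in Ad-MEM40 and 220 in Ad-Null. Apod was at 408 CPM in Ad-COMBO (355 to 466), 385 in Ad-mIFNB (363 to 409), 69.7 in Ad-MEM40 (55.8 to 86.0) and 153 in Ad-Null (128 to 181). Ly6c1, whose sequence is nearly that of Ly6c2, was at 0, 1.74, 8.01 and 5.83 CPM in the same order of libraries, and how the authors' counting divided reads between the pair is not known.

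Several defining genes of classical monocytes were sparse in these cells, while Ccr2 was not. Ccr2, the receptor through which monocytes leave the bone marrow, was at 187 CPM in Ad-COMBO members, 278 in Ad-mIFNB, 356 in Ad-MEM40 and 364 in Ad-Null, against 60.5, 216, 257 and 288 CPM in their counterparts and 61.4, 151, 224 and 250 CPM in cells with Xcr1 or Clec9a. Ccr2 was thus present in every library and higher in members than in counterparts. Vcan, the proteoglycan versican and a standard monocyte mark, was at 1.90 CPM in Ad-COMBO, 1.74 in Ad-mIFNB, 24.8 in Ad-MEM40 and 5.83 in Ad-Null. F13a1, a coagulation factor subunit made by monocytes, was at 0, 0.348, 16.8 and 32.7 CPM, and Fn1, fibronectin, at 0, 3.13, 34.5 and 16.3 CPM. With 43 members, the 0 in Ad-COMBO allows up to 5.71 CPM (3 UMIs), a floor for counting error only. The 85 Retnla-rich cells of the Ad-Null library had Fn1 at 3003 CPM, F13a1 at 367 and Ccr2 at 1111. Their Ly6c2 was at 6.36 CPM, against 81.5 CPM in members and counterparts together, so they do not stand for Ly6c2-high monocytes. Of the 14 genes of the classical monocyte list, 5 were at 0 in Ad-COMBO members, 2 in Ad-mIFNB, 0 in Ad-MEM40 and 1 in Ad-Null. The summed list was at 682, 602, 1348 and 1142 CPM in members, against 443, 751, 991 and 991 in counterparts, and at 5679 CPM in the Retnla-rich cells of Ad-MEM40 and 6391 in those of Ad-Null. The genes that monocytes share with the interferon response (Ms4a4c, Plac8, Fcgr1, Ly6i, Ly6a and Ifi204) showed the opposite order. They summed to 12246, 10294, 7763 and 6720 CPM in members, against 4306, 5021, 2942 and 2752 in counterparts and 297 and 254 CPM in the Retnla-rich cells of Ad-MEM40 and Ad-Null.

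Lyz2, the lysozyme of monocytes, macrophages and neutrophils, divided the libraries: 36.2 CPM in Ad-COMBO members (21.8 to 56.5), 45.6 in Ad-mIFNB (38.1 to 54.1), 1560 in Ad-MEM40 (1492 to 1631) and 808 in Ad-Null (749 to 871). Cells with Xcr1 or Clec9a were split the same way but less widely, with Lyz2 at 215, 187, 1181 and 659 CPM in those libraries. Complement-rich cells, a larger share of the last 2 libraries, were not clearly split, at 3204, 3477, 4774 and 3678 CPM. Members were thus below the cells with Xcr1 or Clec9a in Ad-COMBO and Ad-mIFNB and above them in Ad-MEM40 and Ad-Null. Csf1r, the receptor for the growth factor M-CSF, followed at 15.2, 12.5, 70.5 and 73.5 CPM in members, against 12.4, 10.7, 51.3 and 39.8 CPM in cells with Xcr1 or Clec9a. The part of free RNA in the split between libraries was not tested.

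Genes of conventional dendritic cells were present in the members of all libraries. Zbtb46, a transcription factor of the conventional dendritic cell lineage, was at 34.3 CPM in Ad-COMBO members (20.3 to 54.2), 31.7 in Ad-mIFNB (25.5 to 38.9), 27.2 in Ad-MEM40 (18.9 to 38.1) and 22.2 in Ad-Null (13.3 to 34.6). Counterparts had 49.6, 35.0, 22.3 and 26.6 CPM, and complement-rich cells 1.06 to 6.98. Flt3, the receptor of the growth factor that dendritic cells depend on, was at 24.8, 24.3, 21.6 and 29.2 CPM, against 59.4, 30.2, 29.0 and 29.3 in the counterparts and 2.65 to 10.4 in complement-rich cells. The level of either gene in members was thus above that in the complement-rich cells. In Ad-COMBO, Flt3 in members was also below the counterparts by more than 1.5-fold. Flt3 in members was far below that in cells with Xcr1 or Clec9a, at 138 CPM in Ad-COMBO and 113 in Ad-mIFNB. Kmo, an enzyme of tryptophan breakdown listed with cDC2, was at 217 CPM in Ad-COMBO, 253 in Ad-mIFNB, 126 in Ad-MEM40 and 174 in Ad-Null members, against 162, 176, 85.6 and 126 CPM in counterparts. The lectins of cDC2 and monocyte-derived cells were lower in members. Cd209a was at 17.1 CPM in Ad-COMBO members against 56.6 in counterparts, at 28.5 against 157 in Ad-mIFNB, at 67.3 against 164 in Ad-MEM40 and at 241 against 311 in Ad-Null. Clec10a was at 55.2 against 137, 102 against 217, 151 against 201 and 201 against 294 CPM in the same libraries, and Mgl2 at 49.5 against 200, 29.6 against 287, 40.1 against 186 and 49.0 against 313 CPM. Irf8, high in cDC1 and pDC, was at 170, 157, 270 and 208 CPM in members, against 1469 to 1648 in the cells set aside for Xcr1 or Clec9a. Cadm1, an adhesion molecule of cDC1, was at 0, 4.52, 4.01 and 2.33 CPM. Cd74, the MHC class II invariant chain, was at 14431, 15093, 15678 and 15412 CPM in members, in cells that the sort had chosen for MHC class II.

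To compare single cells at equal depth, each was thinned to 3000 UMIs, which left out 7 members in Ad-COMBO, 29 in Ad-mIFNB, 12 in Ad-MEM40 and 5 in Ad-Null. A cell then had the monocyte set when it held a UMI of Vcan, F13a1, Thbs1 (thrombospondin) or Chil3 (a chitinase-like protein), and the cDC2 set when it held one of Cd209a, Flt3, Zbtb46 or Kmo. The choice of genes bears on the shares. The monocyte set leaves out list genes that many thinned members held, with a UMI of Ccr2 in 41.7 to 52.5%, of Cd14 in 13.4 to 41.7% and of Itgam, an integrin chain of myeloid cells, in 16.7 to 33.8% of them. Kmo alone was seen in 27.3 to 45.4%. Flt3 was seen in 8.33%, 5.56%, 6.47% and 4.92% of thinned members in Ad-COMBO, Ad-mIFNB, Ad-MEM40 and Ad-Null. Cells with Xcr1 or Clec9a had Flt3 in 27.2 to 32.1% and complement-rich cells in 2.44 to 3.37%. Members were thus nearer to the complement-rich cells in Flt3. Zbtb46 was nearer to cells with Xcr1 or Clec9a, at 8.33 to 11.5% of members against 9.75 to 13.5%. Complement-rich cells had Zbtb46 in 0 to 2.19%. The cDC2 set alone was found in 41.7% of 36 Ad-COMBO members, 56.0% of 216 in Ad-mIFNB, 44.6% of 139 in Ad-MEM40 and 62.3% of 61 in Ad-Null. The monocyte set alone was found in 0 of 36 (an exact interval up to 9.74%), 0.463%, 8.63% and 3.28% there. Neither set was seen in 58.3%, 43.5%, 46.0% and 34.4%. Members were close to their counterparts in this, which had the cDC2 set alone in 51.1%, 58.6%, 46.4% and 57.5% and the monocyte set alone in 0.709%, 1.13%, 6.86% and 4.07%. The cDC2 set was not particular to cDC2, since cells with Xcr1 or Clec9a had it alone in 46.7 to 52.6% of cells and Siglech cells in 45.8 to 58.1%. Complement-rich cells had any of its genes in 5.62%, 6.44%, 14.2% and 14.8%. The monocyte set alone was found in 44.9% of Retnla-rich cells in Ad-MEM40 and 55.0% in Ad-Null.

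**Figure D2:**
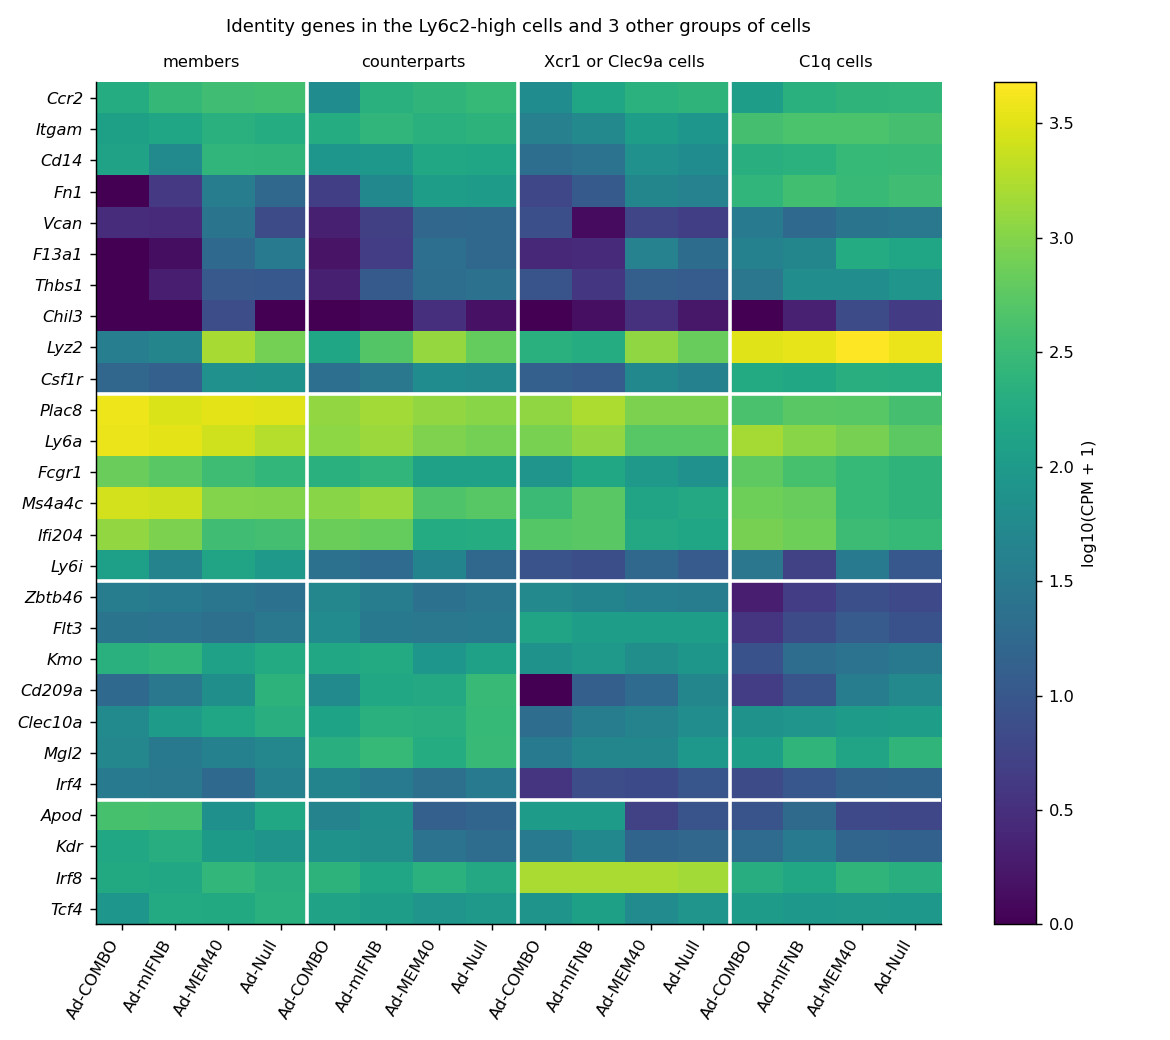
Levels of named genes as log10(CPM + 1), in colour, for members, counterparts, cells with Xcr1 or Clec9a and C1q cells, each with the 4 libraries side by side; the blocks from the top are monocyte and macrophage genes, monocyte genes shared with interferon, cDC2 genes, and others. Members are brightest at Plac8 and Ly6a and dark at Chil3, F13a1, Vcan and Fn1, with Fn1 at 0 CPM in Ad-COMBO and 34.5 CPM in Ad-MEM40.

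Beside the counterparts of the same library, members carried more interferon-response transcript in all 4 libraries, with or without interferon beta in the vector. The rule set these groups by Ly6c2, which interferon induces, so the comparison is a description with no test. Of 2525 genes measured at 50 CPM or more in each library, 55 (2.18%) were higher in members by 1.5-fold or more in all 4 libraries and 43 (1.70%) were lower. In single libraries the shares were 7.94%, 3.60%, 3.05% and 3.48% higher and 27.1%, 10.8%, 15.9% and 11.7% lower in Ad-COMBO, Ad-mIFNB, Ad-MEM40 and Ad-Null. Apod led the 55 genes, with a median log2 ratio of 2.72 over the libraries: 408 CPM in members against 43.6 in counterparts in Ad-COMBO, 385 against 66.7 in Ad-mIFNB, 69.7 against 12.3 in Ad-MEM40 and 153 against 14.8 in Ad-Null. Kdr, the VEGF receptor 2 better known from endothelium, came next at 162 against 76.2, 194 against 64.3, 99.4 against 24.2 and 79.3 against 19.4 CPM. Plac8, a cysteine-rich protein abundant in monocytes and pDC, was at 3819 against 1200, 2997 against 1476, 3322 against 1206 and 3170 against 1066 CPM, nearly equal among members of all libraries. Most of the other leading genes are interferon-induced. Irf7, the interferon-induced regulator of interferon genes, was at 2124 against 729 CPM in Ad-COMBO, 1662 against 710 in Ad-mIFNB, 525 against 198 in Ad-MEM40 and 582 against 206 in Ad-Null. Isg15 was at 6295 against 2151, 4072 against 1940, 1562 against 579 and 1163 against 560 CPM. Isg20, Ly6a, Phf11d, Ifit3, Ifi211, Ifi44, Ube2l6, Bst2, Fcgr1 (the high-affinity Fc receptor) and Ass1 (argininosuccinate synthase) completed the 15 highest. These genes were picked for passing 1.5-fold the same way in all 4 libraries, so their shared direction was fixed by the choice. The sizes still spread, as for Ifi44 with log2 ratios of 0.745 in Ad-mIFNB and 1.661 in Ad-Null.

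**Figure D3:**
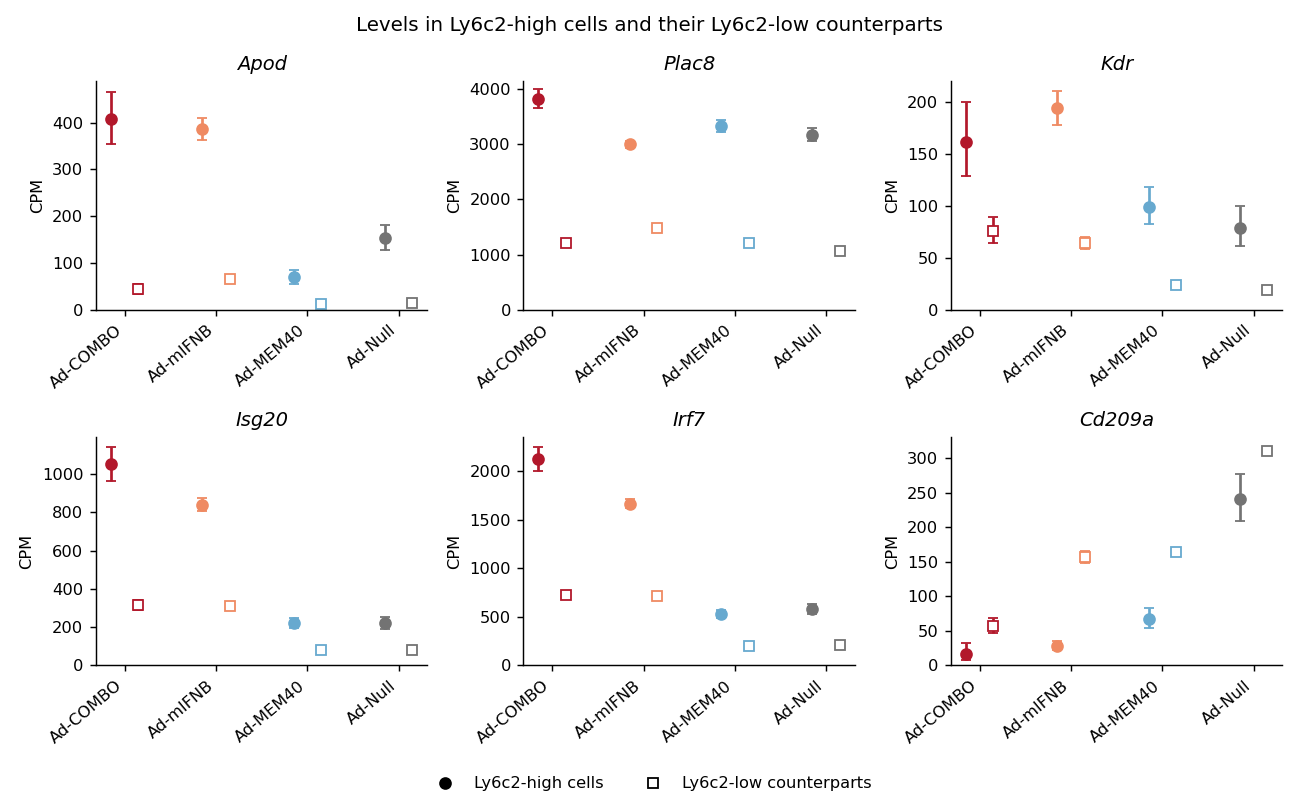
CPM of Apod, Plac8, Kdr, Isg20, Irf7 and Cd209a in members (filled circles) and their counterparts (open squares) of each library, with exact 95% Poisson intervals as bars. The first 5 genes are higher in members of every library, such as Plac8 at 3170 against 1066 CPM in Ad-Null, and Cd209a is lower.

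By list, 15 of 28 measured type I interferon response genes were higher in members by 1.5-fold or more in Ad-COMBO, 15 in Ad-mIFNB, 22 in Ad-MEM40 and 18 in Ad-Null, none was lower, and the medians were 0.69, 0.61, 0.76 and 0.71 on the log2 scale. All genes together had medians of -0.190, -0.0549, -0.160 and -0.114. Of the 6 genes that monocytes share with the interferon response, 6, 5, 6 and 6 were higher. The classical monocyte list was mixed: 3 were higher and 2 lower of 8 in Ad-COMBO, 0 higher and 8 lower of 12 in Ad-mIFNB, 6 higher and 3 lower of 14 in Ad-MEM40, and 3 higher and 3 lower of 14 in Ad-Null. No cDC2 gene was higher in any library, and 6 of 11, 5 of 11, 2 of 12 and 3 of 12 were lower. Cell cycle genes were lower for 12 of 14, 15 of 16, 15 of 16 and 13 of 16, with Mki67, the proliferation antigen, at 15.2 CPM in members against 115 in counterparts in Ad-COMBO, 11.8 against 62.7 in Ad-mIFNB, 20.8 against 152 in Ad-MEM40 and 7.0 against 124 in Ad-Null. All 9 melanoma genes were lower in each library. Their sum was 11.4 CPM in members against 1408 in counterparts in Ad-COMBO, 6.61 against 1422 in Ad-mIFNB, 47.3 against 3423 in Ad-MEM40 and 38.5 against 2089 in Ad-Null. The counterparts therefore hold tumour cell transcripts that the members nearly lack, and their part in the ratios was not tested.

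Markers of other blood cells were nearly absent from the members. Summed neutrophil genes were at 11.4 CPM in Ad-COMBO, 8.70 in Ad-mIFNB, 12.8 in Ad-MEM40 and 11.7 in Ad-Null, and B cell genes at 0, 5.57, 7.21 and 8.17 CPM. T and NK cell genes were at 1.90, 2.78, 35.3 and 31.5 CPM, against 68.6, 32.1, 44.8 and 6.63 in counterparts. Mast cell and erythroid genes were at 0 in every library. Macrophage genes summed to 240, 291, 598 and 540 CPM in members, against 620, 458, 1366 and 857 in counterparts. pDC transcripts were less sparse and stood above the counterparts in every library. The pDC list summed to 417, 264, 431 and 301 CPM in members, against 167, 155, 108 and 122 in counterparts, although the rule left out cells with over 2 Siglech UMIs. At least 5 UMIs of that list were found in 6 of 43, 42 of 245, 17 of 151 and 13 of 66 members, and the 5 cells richest in them held 79.0%, 24.7%, 54.3% and 50.0% of those UMIs. Siglech cells themselves had Plac8 at 2616 to 3996 CPM, a range that covers the members, and Apod at 679 CPM in Ad-COMBO, 226 in Ad-mIFNB, 29.0 in Ad-MEM40 and 47.0 in Ad-Null. Apod was thus higher in members than in Siglech cells in every library but Ad-COMBO, where it was lower.

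Among the members, the interferon response was higher at higher Ly6c2 in both interferon beta libraries. The type I interferon list summed to 21879, 25482 and 30620 CPM in Ad-COMBO members with 10 to 20, 20 to 40 and 40 or more Ly6c2 UMIs per 10000 (15, 12 and 16 cells), and to 15507, 19960 and 22914 CPM in Ad-mIFNB (87, 92 and 66 cells). In Ad-MEM40 it summed to 6899, 9041 and 14822 CPM over 113, 34 and 4 cells. In Ad-Null it summed to 5950 CPM over 55 cells and 10601 over 10, and 1 cell lay above 40. Even the lowest class of Ad-COMBO and Ad-mIFNB was above the middle class of the other 2 libraries. Apod ran the same way, at 90.5, 487 and 649 CPM in Ad-COMBO, 248, 393 and 555 in Ad-mIFNB and 39.3, 153 and 381 in Ad-MEM40, and at 147 and 216 in the first 2 classes of Ad-Null. Cd209a ran the other way in the interferon beta libraries, at 37.3, 14.8 and 0 CPM in Ad-COMBO and 72.8, 9.48 and 0 in Ad-mIFNB, its Ad-Null level was 276 CPM in the lowest class and 18.8 in the next, and in Ad-MEM40 it was at 64.2, 86.1 and 0 CPM. MHC class II genes summed to 44402, 39297 and 31462 CPM in Ad-COMBO, 46414, 37118 and 35937 in Ad-mIFNB, 41514, 34351 and 39893 in Ad-MEM40, and 39602 and 30741 in the first 2 classes of Ad-Null. The classical monocyte list was lower at higher Ly6c2 in both interferon beta libraries, at 889, 591 and 550 CPM in Ad-COMBO and 727, 539 and 535 in Ad-mIFNB. In Ad-MEM40 it was nearly level in the first 2 classes, at 1381 and 1339 CPM, and at 229 in the 4 cells of the last. In Ad-Null it was higher at higher Ly6c2, at 1111 CPM in the 55 cells of the lowest class and 1438 in the 10 of the second. The pDC list was higher at higher Ly6c2, at 128, 185 and 843 CPM in Ad-COMBO, 208, 255 and 353 in Ad-mIFNB and 225, 1025 and 2248 in Ad-MEM40, and at 294 and 357 in the first 2 classes of Ad-Null, and its part in the Apod values was not tested. Cells of a class share 1 library and are not replicates.

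**Figure D4:**
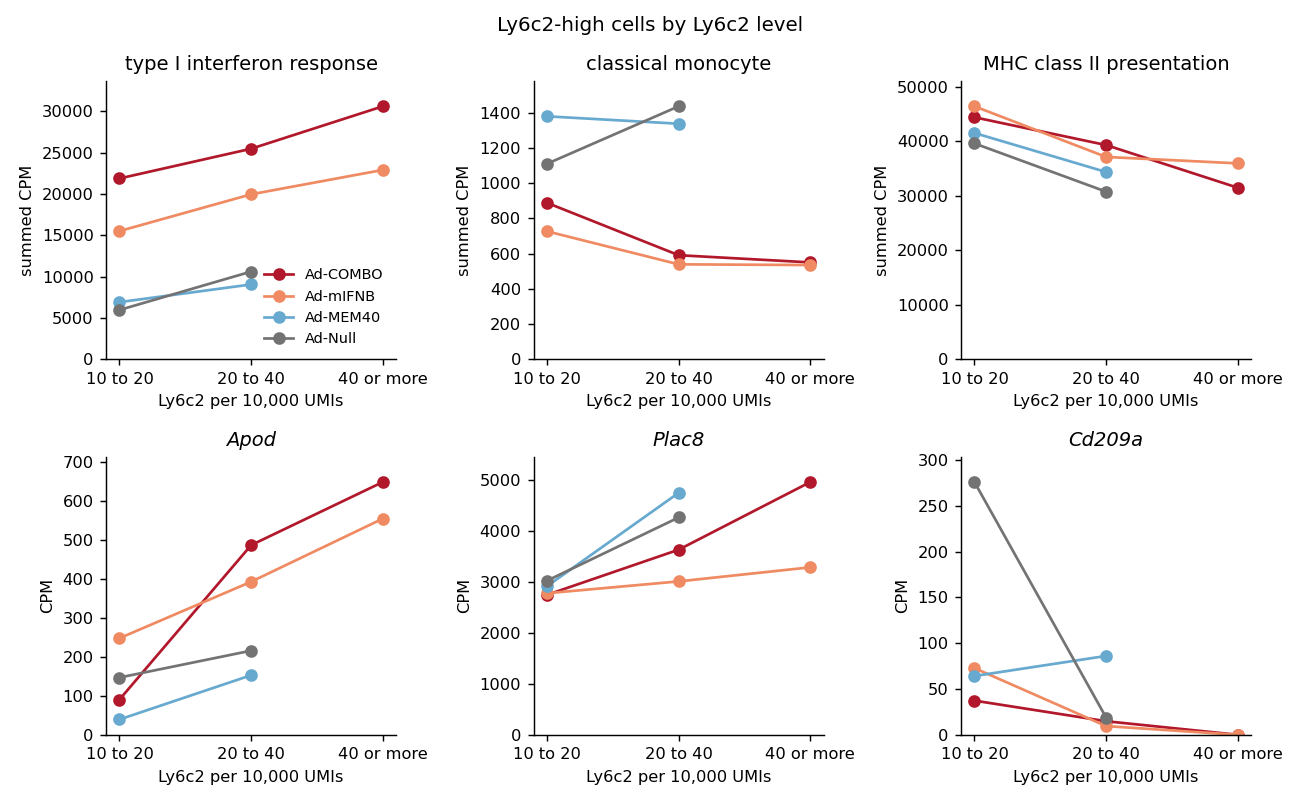
Summed CPM of 3 gene lists (top) and CPM of Apod, Plac8 and Cd209a (bottom) in members by their own Ly6c2 level (10 to 20, 20 to 40, and 40 or more UMIs per 10000), with a line per library and only classes of at least 5 cells drawn. The type I interferon list runs from 21879 to 30620 CPM in Ad-COMBO and from 15507 to 22914 CPM in Ad-mIFNB.

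The next question was how the cells chosen by the rule differed between treatments. They were not shown to be the same kind of cell in each library. Genes with at least 20 UMIs over both libraries were compared as log2 ratios of CPM with 5 CPM added to both sides, which understates the ratio of low genes, and a gene is called higher or lower here at 1.5-fold or more. With 1 library on each side these calls are sizes and not tests. The 3 comparisons with Ad-Null share that library, and those of Ad-COMBO with Ad-Null and with Ad-mIFNB share Ad-COMBO. The members of a treatment also differed from each other in Ly6c2, as given above.

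In Ad-COMBO members, 898 of 6021 genes (14.9%) were higher and 1173 (19.5%) lower than in Ad-Null members, with a median log2 ratio of -0.0971 over all genes. In Ad-mIFNB members, 1091 of 8321 genes (13.1%) were higher and 702 (8.44%) lower than in Ad-Null members, with a median of 0.0403. All 28 measured genes of the type I interferon list were higher in both, with medians of 1.72 and 1.33. Ifit3, an IFIT family member, was at 1994 CPM in Ad-COMBO members (1875 to 2119), 1330 in Ad-mIFNB (1288 to 1373) and 244 in Ad-Null (212 to 279), ratios of 3.01 and 2.42 on the log2 scale. Rsad2, viperin, was at 1442, 933 and 195 CPM in those libraries, and Ifit1, which binds foreign RNA ends, at 990, 612 and 73.5 CPM. The 3 libraries did not overlap in their counting intervals for Ifit3. Of the 6 genes that monocytes share with the interferon response, Ms4a4c, Fcgr1, Ly6a and Ifi204 were higher in both, and Ly6i was lower in Ad-mIFNB. Genes associated with interferon gamma were called less evenly: 11 of 15 were higher and 1 lower in Ad-COMBO (median 1.14), and 5 were higher and 2 lower in Ad-mIFNB (median 0.27). Gbp5, a guanylate-binding protein, was at 173 CPM in Ad-COMBO (140 to 213), 66.1 in Ad-mIFNB (57.0 to 76.2) and 74.7 in Ad-Null (57.5 to 95.3). Cxcl9, a chemokine for T cells and a hallmark of interferon gamma, was lower in both, at 32.4 CPM in Ad-COMBO, 87.3 in Ad-mIFNB and 528 in Ad-Null, where 1 cell held 99 of 453 UMIs. The Ad-COMBO members were also below the 438 CPM of Cxcl9 in Ad-COMBO cells with Xcr1 or Clec9a.

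Antigen presentation genes divided by class. Of 18 MHC class I genes, 10 were higher and 2 lower in Ad-COMBO members than in Ad-Null members (median 0.72), and 8 were higher and 2 lower in Ad-mIFNB (median 0.46). H2-K1, a class I heavy chain, was at 3662 CPM in Ad-COMBO, 3808 in Ad-mIFNB and 1773 in Ad-Null, and H2-D1, another, at 3942, 4058 and 2312 CPM. The 2 lower genes were Calr and Pdia3, chaperones that load peptide. Of 11 MHC class II genes 1 was higher in Ad-COMBO, H2-Oa, and none in Ad-mIFNB, and none was lower, in cells that the sort had chosen for MHC class II. Cd40 was at 171 CPM in Ad-COMBO (138 to 211), 117 in Ad-mIFNB (105 to 130) and 82.8 in Ad-Null (64.7 to 104), and the costimulatory ligand Cd86 at 371, 252 and 187 CPM. Of 18 CD40 and NF-kB target genes, 9 were higher and 2 lower in Ad-COMBO (median 0.60), and 2 higher and 3 lower in Ad-mIFNB (median -0.01). Traf1, an adaptor of the CD40 pathway, was at 613 CPM in Ad-COMBO, 502 in Ad-mIFNB and 195 in Ad-Null. Tnfsf10, the death ligand TRAIL, was at 32.4, 23 and 8.17 CPM, and Il15, a growth factor for T and NK cells, at 24.8, 17.4 and 9.33 CPM, on 17 and 13 UMIs in Ad-COMBO.

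Lyz2 and Cd209a were among the 5 lowest genes beside Ad-Null in both libraries. Lyz2 had log2 ratios of -4.30 in Ad-COMBO and -4.01 in Ad-mIFNB, and Cd209a, with the values given above, of -3.48 and -2.88. Cd209a did not stand for the cDC2 list as a whole. In Ad-COMBO, 1 gene of that list was higher and 2 were lower of 10 measured (median -0.09). In Ad-mIFNB, 1 was higher and 3 were lower of 11 (median 0.38). No classical monocyte gene was higher in either library. In Ad-COMBO, Ccr2, F13a1, Cd14 and F10 were lower of 8 measured (median -0.76), and in Ad-mIFNB 7 of 9 were lower, among them Fn1 and Clec4e (median -1.39). Cd14, the lipopolysaccharide co-receptor, was at 130 CPM in Ad-COMBO, 57.0 in Ad-mIFNB and 255 in Ad-Null. Macrophage genes were lower for 5 of 6 in Ad-COMBO and 4 of 8 in Ad-mIFNB. Apoe, apolipoprotein E, was at 21.0 CPM in Ad-COMBO (10.5 to 37.5), 5.57 in Ad-mIFNB (3.18 to 9.04) and 96.8 in Ad-Null (77.1 to 120), all below the 205, 180 and 274 CPM of Apoe in cells with Xcr1 or Clec9a. Tmem176b, a transmembrane protein of dendritic cells and macrophages, had 1 UMI in Ad-COMBO and 90 in Ad-Null, a 55.1-fold lower level (9.65 to 2201). Lpl, lipoprotein lipase, had none in Ad-COMBO, at least 15.5-fold lower than in Ad-Null against a floor of 3 UMIs, but 53 of the 76 Ad-Null UMIs lay in 1 cell. Arg1, arginase 1, lowest in Ad-mIFNB at 2.78 CPM against 149 in Ad-Null, was similar, with 92 of 128 Ad-Null UMIs in 1 cell, and its log2 ratio turned to 0.14 with a Ly6c2 limit of 20 per 10000. Glycolysis and hypoxia genes were lower for 8 of 14 and 5 of 14, such as Pgk1, a glycolytic kinase, at 162 CPM in Ad-COMBO, 219 in Ad-mIFNB and 350 in Ad-Null. Sct, the hormone secretin, topped the higher genes of both, with 62 UMIs in 18 Ad-COMBO cells and 280 in 66 Ad-mIFNB cells against 1 UMI in Ad-Null, ratios of 101 (17.5 to 4062) and 83.5 (14.9 to 3309). Sct was not particular to the members: cells with Xcr1 or Clec9a had 107, 81.3 and 4.45 CPM in the 3 libraries. Lipg, endothelial lipase, was at 129 CPM in Ad-mIFNB against 3.50 in Ad-Null.

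Genes that respond to tissue dissociation and heat stood higher in the same libraries. Of 16 such genes, 10 were higher in Ad-COMBO members than in Ad-Null members (median 0.66), 9 in Ad-mIFNB (median 0.67) and 3 in Ad-MEM40 (median 0.18), and none was lower. The inducible heat shock gene Hspa1a was at 914 CPM in Ad-COMBO, 279 in Ad-mIFNB, 172 in Ad-MEM40 and 113 in Ad-Null, and in Ad-COMBO 1 cell held 199 of its 480 UMIs. The immediate early gene Fos was at 2531, 2992, 2124 and 1822 CPM. In the counterparts the list summed to 17114, 15522, 14655 and 13331 CPM, against 22045, 18770, 15041 and 13360 in members. The part of sample handling in the differences between libraries was not tested.

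Ad-MEM40 members were the nearest to Ad-Null members in number of calls, with 387 of 7076 genes (5.47%) higher and 435 (6.15%) lower and a median log2 ratio of -0.0289. None of the 28 type I interferon genes was called in either direction (median 0.06), nor any of the 6 monocyte genes shared with that response or of the 18 MHC class I genes. Isg15 was at 1562 CPM in Ad-MEM40 (1493 to 1633) and 1163 in Ad-Null (1092 to 1238). Inflammatory chemokines stood apart from this. Of 16 measured, 8 were higher (Ccl2, Ccl5, Ccl6, Ccl7, Ccl22, Cxcl1, Cxcl2 and Cxcl16) and none lower, a median of 0.62. With a Ly6c2 limit of 20 per 10000, where Ad-Null keeps 11 members, that median reversed to -0.27, Ccl5 to -0.54 and Spp1, osteopontin, to -0.52, and the type I interferon median was -0.46. Cxcl2, which attracts neutrophils, was at 1670 CPM in Ad-MEM40 (1599 to 1743) and 934 in Ad-Null (871 to 1001), and the inflammasome cytokine Il1b at 1638 (1568 to 1711) and 985 CPM (919 to 1053). Cxcl2 was also at 873 and 543 CPM in cells with Xcr1 or Clec9a of Ad-MEM40 and Ad-Null and at 4023 and 3251 CPM in their complement-rich cells, and free RNA was not tested. Of 18 CD40 and NF-kB target genes 7 were higher and none lower, among them Nfkbia, the NF-kB inhibitor, at 1673 CPM in Ad-MEM40 and 947 in Ad-Null, and Traf1 at 361 and 195 CPM. Nos2, inducible nitric oxide synthase, had 99 UMIs in 10 Ad-MEM40 members and none in Ad-Null, at least 22.7-fold higher. The 79.3 CPM of Nos2 in Ad-MEM40 members stood beside 13.8 in their counterparts, 3.64 in cells with Xcr1 or Clec9a and 22.4 in complement-rich cells. Slc7a11, the cystine transporter, was at 80.9 against 7.0 CPM, Acod1, which makes itaconate, at 60.1 against 10.5, and Clec4e, the lectin Mincle, at 131 against 29.2. Those 4 genes are typical of activated myeloid cells. Single cells weighed on others: 217 of 279 Spp1 UMIs and 109 of 276 Ccl5 UMIs lay in 1 cell each, and the 101 UMIs of Ly6d, a pDC and lymphoid gene, in 7 cells. Without members that held 5 or more pDC list UMIs, an alternative added after the data were seen, Ly6d had a log2 ratio of -0.43 in place of 3.15. Cd209a was the lowest gene, at 67.3 against 241 CPM, a log2 ratio of -1.77 that turned to 1.14 with a Ly6c2 limit of 20 per 10000, and Apod was at 69.7 against 153 CPM, a ratio of -1.08. Of 11 measured cDC2 genes, 1 was higher and 3 were lower (median -0.36).

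Ad-COMBO members were set against Ad-mIFNB members to see what the added ISF35 went with. Of 8073 genes, 442 (5.48%) were higher and 1179 (14.6%) lower, with a median of -0.116. Most interferon genes were similar: 4 of 28 were higher (Ifit1, Isg15, Rsad2 and Oasl1), none was lower, and the median was 0.37. Isg15 was at 6295 CPM in Ad-COMBO (6082 to 6513) and 4072 in Ad-mIFNB (3998 to 4146). Genes associated with interferon gamma were higher for 8 of 15 and lower for 1 (median 0.61), such as Irf1, a transcription factor of that response, at 444 CPM in Ad-COMBO (389 to 505) and 236 in Ad-mIFNB (219 to 255), and Cd274, the checkpoint ligand PD-L1, at 314 (268 to 366) and 165 CPM (151 to 181). Of 18 CD40 and NF-kB target genes 6 were higher and none lower (median 0.45), with the adhesion molecule Icam1 at 137 CPM in Ad-COMBO (107 to 173) and 63.7 in Ad-mIFNB (54.8 to 73.6). Among the highest genes was Cxcl10, a chemokine that draws T cells through CXCR3, at 3236 CPM in Ad-COMBO (3084 to 3393) and 809 in Ad-mIFNB (776 to 842), a log2 ratio of 1.99. Cxcl10 was at 794 CPM in Ad-Null and 593 in Ad-MEM40, so that the Ad-COMBO library alone stood high. Within Ad-COMBO, Cxcl10 was at 1315 CPM in the counterparts and 688 in cells with Xcr1 or Clec9a. Cytokines were higher for 5 of 12 (Il1b, Il1rn, Il6, Il27 and Osm), and Il1b was at 981 CPM in Ad-COMBO and 385 in Ad-mIFNB. Ccl5, a chemokine for T cells, was lower, at 89.5 CPM in Ad-COMBO and 446 in Ad-mIFNB, where 508 of 1281 UMIs lay in 1 cell. Edn1, endothelin 1, had 2 UMIs in Ad-COMBO and 170 in Ad-mIFNB, 15.5-fold lower (4.23 to 129), and Tmem176b 1 and 167, 30.5-fold lower (5.40 to 1212). The heat shock genes Hspa1a and Hspa1b were higher as well, the second at 665 and 149 CPM, and their part in these differences was not tested. None of the 18 MHC class I genes was called (median -0.02).

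**Figure D5:**
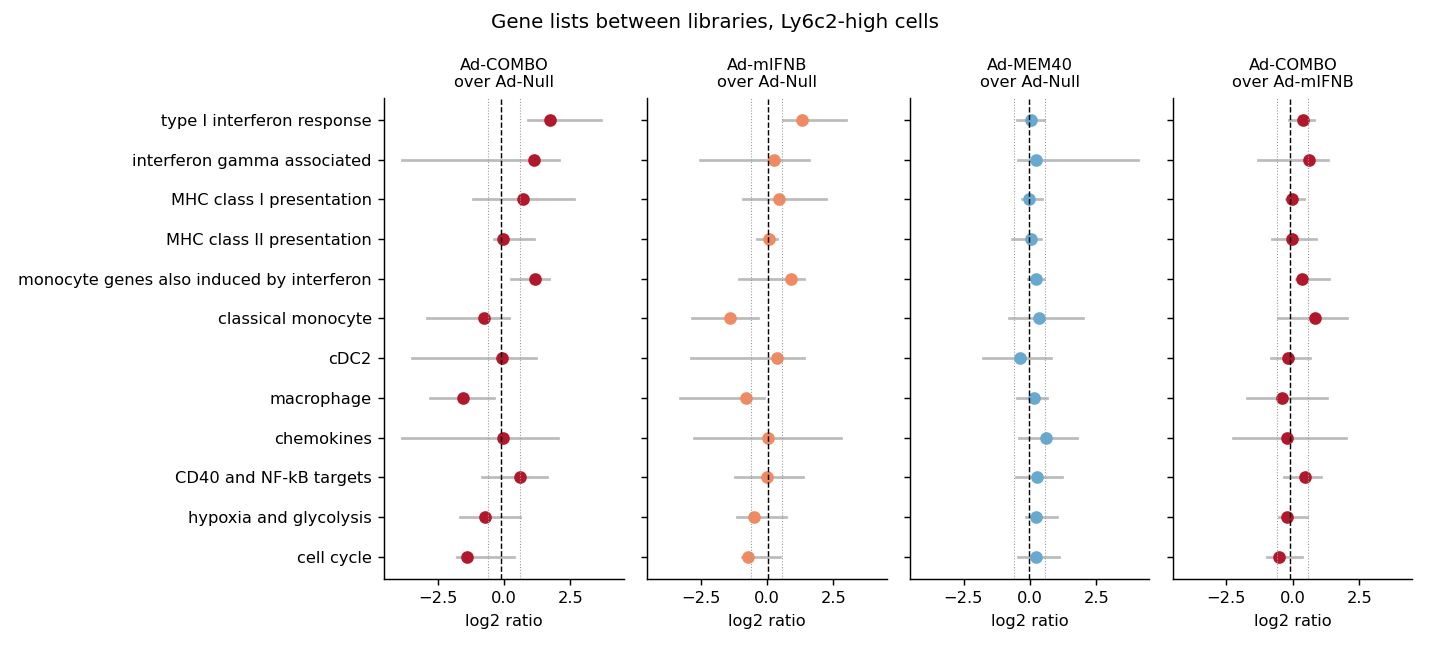
Log2 ratios between libraries in Ly6c2-high cells: points are the medians of each gene list, grey bars run from its lowest to its highest gene, the dashed line is the median of all genes and the dotted lines mark 1.5-fold. The type I interferon list stands at 1.72, 1.33, 0.06 and 0.37 in the 4 panels from left to right.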

How the data were processed

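The deposited files are gene by barcode matrices of raw counts, 1 per library, with 10x 3′ chemistry per the labels' protocols. The submitters' processing notes name Cell Ranger 3.0, Seurat 4.0 and mm10, and the matrix header names Cell Ranger 6.0.0, so the version behind the counts is not settled. Values are whole UMI counts that the authors deposited without normalization. Barcodes numbered 954 in Ad-COMBO, 2076 in Ad-mIFNB, 18185 in Ad-MEM40 and 11308 in Ad-Null, and 671, 1810, 15656 and 8745 passed the filter of 500 genes and 10% mitochondrial UMIs.

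Members were found by the stated rule, and the members and gene lists were chosen with earlier results of these data known. For each group of cells in a library the counts were added up and scaled to CPM. Exact Poisson intervals, exact binomial (Clopper-Pearson) intervals and log2 ratios (5 CPM added, at least 20 UMIs over both libraries) were computed with Python 3.11.15, numpy 2.4.6 and scipy 1.17.1. No test was made, as each treatment had 1 library. The ratio step was tested on simulated data with planted changes in single genes, and the list steps were not. Doublets were called with Scrublet in scanpy 1.11.5 and kept. Its automatic threshold marked 2 of 671 cells in Ad-COMBO, 2 of 1810 in Ad-mIFNB and 1487 of 15656 in Ad-MEM40, and in Ad-Null the 612 highest scores, the expected 7.00%, were taken. Shares per cell were taken after thinning to 3000 UMIs.

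Genes named between libraries were the 10 highest and 10 lowest log2 ratios with at least 50 CPM in 1 library, 50 UMIs over both and 10 members with a UMI. Beside counterparts they were the 15 highest and 15 lowest median ratios among genes past 1.5-fold the same way in all 4 libraries. Members of the gene lists are named too, a few of the genes are not reported here, and both rules left out mitochondrial, ribosomal, immunoglobulin, T cell receptor, sex-linked marker, predicted and rule genes. Gene positions are from the GRCm38 annotation, in which 32158 of the 32285 gene IDs were found, and promoters are from RefSeq. Alternatives covered the thresholds, depth, doublets, pseudocount, minimum counts, scaling and weight of cells.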

Additional observations from a re-analysis of the deposited data

Results flagged for a closer look

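Members and counterparts of a library went opposite ways past 1.5-fold for 6 of the 349 genes looked at. These differences were not tested, since each treatment had 1 library. Spp1, osteopontin, had a log2 ratio of Ad-mIFNB over Ad-Null of -1.35 in members and 1.72 in counterparts. Ctsd, the lysosomal protease cathepsin D, had a ratio of Ad-COMBO over Ad-Null of -1.12 in members and 0.63 in counterparts. For Lpl, with no UMI in Ad-COMBO members, the fitted ratio was -4.23 in members and 0.99 in counterparts. Mt1, a metallothionein, was at 0.63 in members and -0.86 in counterparts for Ad-COMBO over Ad-Null, and Cyp4f16, a cytochrome P450, at -0.64 and 0.77. Ccl7, a chemokine for monocytes, was at 1.38 in members and -1.07 in counterparts for Ad-mIFNB over Ad-Null.

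For 2 genes interferon beta went with opposite changes depending on whether ISF35 was also given, which was not tested either. Tgm2, transglutaminase 2, was at 164 CPM in Ad-COMBO, 55.7 in Ad-mIFNB, 96.2 in Ad-MEM40 and 132 in Ad-Null. Its log2 ratio was 0.74 for Ad-COMBO over Ad-MEM40 and -1.17 for Ad-mIFNB over Ad-Null. Ccl5 had ratios of -1.26 and 2.78 in the same comparisons, and 508 of its 1281 Ad-mIFNB UMIs lay in 1 cell.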

How the results depend on the processing

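Each treatment had 1 library, so no value here has a replicate check, and leaving out a replicate was not possible. No paired analysis was possible because each treatment had 1 library. Ad-COMBO has 43 members, where 3 UMIs are worth 5.71 CPM, and lower levels cannot be read there. Members with 5 or more pDC list UMIs, the top cell of a named gene and a Ly6c2 limit of 20 for the other classes were added after seeing the data. The genes named between libraries gave 80 pairs of gene and comparison, in which some genes recur. Of 960 values under alternatives, 950 kept their sign and 941 kept it past 1.5-fold. Of the 80 pairs, 63 stayed past 1.5-fold under each alternative.

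The share of members depended on the Ly6c2 limit. At 5 per 10000 it was 19.7% in Ad-mIFNB, 2.65% in Ad-MEM40 and 2.02% in Ad-Null. At 20 it was 4.17% in Ad-COMBO, 8.73% in Ad-mIFNB, 0.243% in Ad-MEM40 and 0.126% in Ad-Null. After thinning to 3000 UMIs it was 11.2%, 19.6%, 2.01% and 1.76% in the same order of libraries. There the raw UMI limits for Ccr7, for Xcr1 and Clec9a and for Siglech were applied to thinned counts. Cells that these limits left out at full depth could then pass, so the thinned share is not that of the same cells. With C1q under 2 it was 0.760% in Ad-MEM40. Thinned to 1500 UMIs, the cDC2 set was seen in 36.3% of Ad-mIFNB, 24.7% of Ad-MEM40 and 37.1% of Ad-Null members.

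With Ly6c2 at 20, where Ad-Null keeps few cells, 658 genes were lower in Ad-COMBO than in Ad-Null, and 1802 higher and 1178 lower in Ad-mIFNB. The type I interferon median over Ad-Null was then 1.08 in Ad-COMBO, 0.71 in Ad-mIFNB and -0.46 in Ad-MEM40, that of monocyte genes shared with interferon 0.49, 0.22 and -0.20, and that of classical monocyte genes -0.02 for Ad-COMBO over Ad-mIFNB, a reversal. For Ad-mIFNB over Ad-Null, alternative activation (0.80), cell cycle (0.56) and Arg1 (0.14) reversed, and for Ad-MEM40 over Ad-Null chemokines (-0.27), Ccl5 (-0.54), Spp1 (-0.52), Cd209a (1.14), Arg1 (0.77), Tiam1 (0.33), Cyp4f16 (0.87) and Snhg6 (0.46). In members at 10 to 20, the pDC list for Ad-MEM40 over Ad-Null (-0.47), and the Ly6 family (-0.05) and Hbegf (-1.87) for Ad-COMBO over Ad-mIFNB reversed, and the classical monocyte median of Ad-COMBO over Ad-Null was -0.20. Without members rich in pDC UMIs, Ly6d reversed to -0.43 for Ad-MEM40 over Ad-Null. The cause was not tested.

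With no minimum beyond 1 UMI, 1659 genes were higher and 2305 lower in Ad-COMBO than in Ad-Null, 778 higher and 810 lower in Ad-MEM40 than in Ad-Null, and 808 higher in Ad-COMBO than in Ad-mIFNB. Thinned, 473 were higher and 496 lower in Ad-COMBO than in Ad-Null, the median of monocyte genes shared with interferon was 0.89 there, and the classical monocyte median of Ad-mIFNB was -0.59. With 1 CPM added, 663 genes were lower in Ad-MEM40 than in Ad-Null. With equal weight to each cell, 694 were lower there and 831 higher in Ad-COMBO than in Ad-mIFNB. Against counterparts without a Ly6c2 UMI, the median of monocyte genes shared with interferon was 1.82 in Ad-COMBO, 1.45 in Ad-mIFNB, 1.80 in Ad-MEM40 and 1.37 in Ad-Null, and the type I interferon median 0.81 in Ad-mIFNB.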
